A study of Arabidopsis thaliana with 4 samples.

Results

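A set of 72 probe sets was brighter in Arabidopsis thaliana leaves deprived of phosphate and in leaves deprived of potassium than in leaves on a full nutrient solution, with the potassium response less than 2 times the phosphate response. The members were chosen by their signals on 3 of the 4 arrays of the series. Each had a signal at least 2 times the full-nutrient signal on both the phosphate-depleted and the potassium-depleted array, after signals under a floor of 25 were set to 25, and a potassium signal below 2 times the phosphate signal. Of 8247 probe sets that were not array controls, 79 met these limits. The choice leaves out named genes, which removed 7 of the 79, 1 probe set each of EXO, GH3.3, TBL37, AT2G34810 and AT2G38240 and both probe sets of STZ. AT2G38240 was taken to be JOX4, a name that the gene tables used here do not carry. The signals that chose the members are given below as a description and support no test.

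Leaf RNA came from rosettes of the ecotype Col-5, which had moved from agar medium to hydroponics at day 21 and were taken 28 h after a nutrient was withdrawn, in constant light at 24 °C. Each of 4 groups had 1 array, a single-colour Affymetrix array hybridised with biotin-labelled RNA. The full-nutrient solution held 0.25 mM KH2PO4 and 0.5 mM KOH, and its listed salts include no nitrate, so the nitrate supply of this reference is uncertain. The nitrate-depleted solution lacked calcium nitrate and had 4 mM calcium sulphate added. The phosphate-depleted solution lacked KH2PO4 and had 0.125 mM K2SO4 added, and the potassium-depleted one lacked KH2PO4 and KOH and had 0.27 mM Ca(H2PO4)2 added. KH2PO4 was thus missing from both solutions that define the set, and a response to its absence cannot be told apart from one to each nutrient. For the phosphate-depleted array the letters of the title and of the source name differ, and the source name and the written treatment set its group.

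Phosphate is taken up by roots through high-affinity transporters, and plants short of it remobilise internal phosphate and remodel membrane lipids under control of PHR1 and related factors. Potassium is the main osmotic cation of plant cells, and its shortage is known to involve reactive oxygen, calcium, ethylene and jasmonate signals and the uptake systems HAK5 and AKT1. Leaves depend on both nutrients through the xylem, and part of the response of leaves to mineral shortage is shared with general stress responses.

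With 1 array per condition no value has a replicate error, no difference could be tested and no p-value is given. The closest measure of technical spread was the range of log2 ratios among probe sets of the same gene above the floor, with a median of 0.24 for phosphate (69 genes), 0.30 for potassium (69 genes) and 0.27 for nitrate (71 genes). The number of arrays limits the precision. The full-nutrient array is the reference of every ratio that defines the set, and per the labels it had 312 masked and 183 outlier cells, against 0 masked and 9 to 50 outlier cells on the other arrays; the part of these cells in the ratios was not tested. In bulk leaf RNA, a change in the share of a cell type and a change in RNA per cell cannot be told apart.

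The platform annotation named 1 gene for 16 of the 72 members, several genes for 2 and none for 54. This was 22.2% of the members with 1 named gene, against 46.0% of all 8247 probe sets. The removal of genes by name lowers the share, which was 29.1% of the 79 probe sets within the limits. It was 41.4% of the 203 probe sets raised 2-fold without potassium only, 32.7% of the 55 raised without phosphate only and 36.8% of the 19 raised in both with a potassium signal at least 2 times the phosphate signal. Each of the 16 named genes was represented by 1 member probe set. No pair of the 16 genes lay side by side in the gene order of assembly TAIR10.1; the closest pair was 35 protein-coding genes apart. Roles given below for genes known by a locus only are family assignments from general knowledge. No sequence of a gene, promoter or probe was used here.

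Over all probe sets, 1.86% were at least 2-fold higher on the phosphate array and 3.65% on the potassium array, and by construction all 72 members were. The phosphate ratio of the members ranged from 2.00-fold to at least 14.5-fold with a median of 2.55-fold, and the potassium ratio ranged from 2.02-fold to 10.3-fold with a median of 3.17-fold, lower bounds counted at their value. For 39 of the 72 the smaller of both ratios lay between 2 and 2.5, for 10 between 2.5 and 3, for 16 between 3 and 4, and for 7 at 4 or more. Most of the set therefore had a smaller ratio below 3. In 13 members the full-nutrient signal was at or below the floor, and their ratios are lower bounds.

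**Figure D1:**
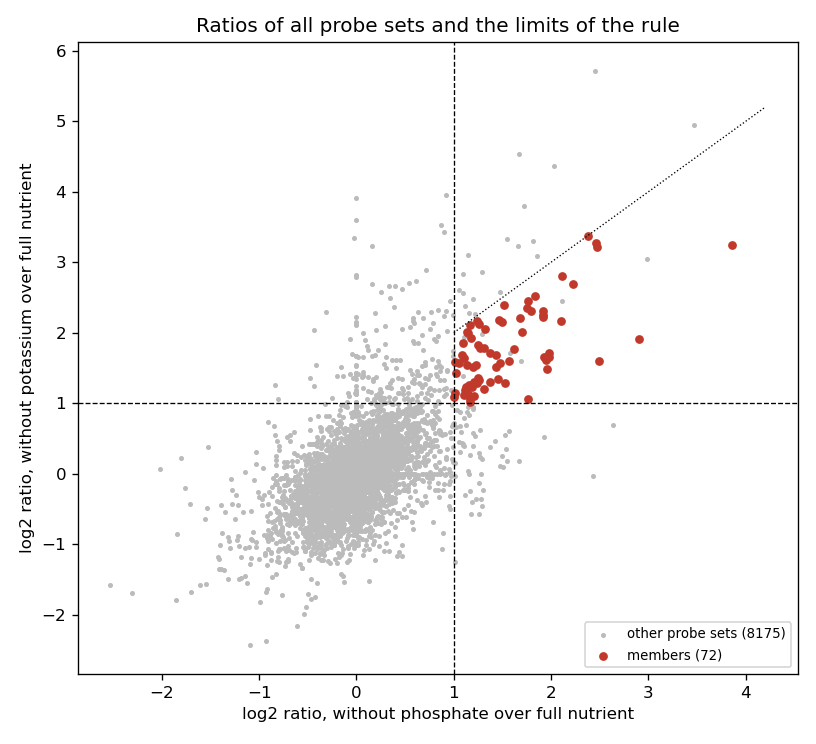
Each point is a probe set, with the log2 ratio of the phosphate-depleted to the full-nutrient array on the x axis and that of the potassium-depleted to the full-nutrient array on the y axis (floor 25). Dashed lines mark 2-fold and the dotted line a potassium signal of 2 times the phosphate signal; the 72 red members fill the area between them, and grey points there are the 7 probe sets of genes left out.

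Members close to the limits show how narrow the choice was. Just inside the 2-fold limit, the unnamed probe set 13918_at had a smaller ratio of at least 2.00, IAA18 one of 2.02, and 20134_s_at, which belongs to several genes, one of 2.02. Just outside it, 17940_g_at had a smaller ratio of 1.99, 12989_at 1.98 and AT1G60070 1.96. SGP1 was also outside with the floor applied, at 48.9 without phosphate over a full-nutrient signal of 21.2 below the floor, so its ratio of at least 1.96 is a bound. On the other limit, 16620_s_at was the last inside, with a potassium signal 1.98 times the phosphate signal, and 14635_s_at, at 2.07 times, was the first outside. With the floor at 10 in place of 25 the rule took 123 probe sets and 41 named genes, and with the floor at 50 it took 49 and 8.

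In what follows, 4 signals in a row are always those under full nutrients, without nitrate, without phosphate and without potassium. A pair of ratios after them is phosphate first and potassium second, each over full nutrients. The named genes are ordered below by what their families do, an order chosen for reading that no list or test defines. AT2G28400, a gene of the plant-specific S40 family linked to senescence, had signals of 86.1, 132.4, 324.8 and 410.6. Both arrays of the rule stood clear of the others, with the nitrate array in between. This was 3.77-fold higher without phosphate and 4.77-fold higher without potassium, the highest smaller ratio of the named genes. IAA18, an Aux/IAA repressor of auxin-responsive transcription, had signals of 36.3, 66.7, 73.3 and 108.8. Its nitrate signal nearly reached the phosphate signal, so this gene was lowest on the full-nutrient array rather than high on the phosphate array alone. Its ratios were 2.02-fold without phosphate, 3.00-fold without potassium and 1.84-fold without nitrate.

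AT2G28710, a zinc finger family gene, had signals of 24.9, 23.8, 74.2 and 75.6. The first pair lay below the floor and the second pair was nearly equal, so the gene was at least 2.97-fold higher without phosphate and at least 3.02-fold higher without potassium. AT4G02940, of a dioxygenase family that includes demethylases of methylated bases, had signals of 40.4, 61.7, 97.4 and 139.2. Its levels were ordered from full nutrient through nitrate and phosphate to potassium, at 2.41-fold and 3.45-fold for the last 2 conditions.

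AT5G64120 encodes peroxidase 71 (PRX71), a class III peroxidase, a type of secreted enzyme that uses hydrogen peroxide on wall phenolics. It had signals of 136.1, 81.5, 367.9 and 387.5. The phosphate and potassium values lay 1.05-fold apart, at 2.70-fold and 2.85-fold over full nutrients, while the nitrate value was 1.67-fold below. AT5G21105, an ascorbate oxidase family gene, had signals of 74.4, 106.5, 171.7 and 182.8. Its phosphate and potassium ratios were also close to each other, 2.31-fold and 2.46-fold, and its nitrate ratio was 1.43-fold.

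AT1G22900, a gene of the dirigent family, whose proteins guide the coupling of wall phenolics, had signals of 15, 13.2, 56.1 and 52.2. It was below the floor on the first pair of arrays and at least 2.24-fold and at least 2.09-fold higher on the second pair. CYTC-2, one of the genes for mitochondrial cytochrome c, which carries electrons in respiration, had signals of 35.5, 59.2, 84.4 and 125.3. Each depleted array was above the full-nutrient array, at 1.67-fold for nitrate, 2.38-fold for phosphate and 3.53-fold for potassium.

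AT2G27080, of a family of hydroxyproline-rich membrane proteins related to late embryogenesis and defence proteins, had signals of 24.8, 17.2, 71.9 and 61.1. It was below the floor in the presence of phosphate and potassium and at least 2.88-fold and at least 2.44-fold higher without either. AT4G36640, a gene of the family of phosphatidylinositol transfer proteins, had signals of 25.8, 28.5, 57.1 and 103.0, with a full-nutrient value just above the floor. Its ratios of 2.21-fold and 3.99-fold were among the less alike of the named genes. AT2G32210, of a family of short cysteine-rich membrane proteins, had signals of 81.2, 113.4, 181.7 and 350.6, which is 2.24-fold without phosphate and 4.32-fold without potassium. Its potassium signal was 1.93 times its phosphate signal, close to the limit of the rule.

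The remaining named genes encode enzymes or proteins of less certain role. AT4G01870, related to bacterial TolB proteins, had signals of 428.0, 201.9, 925.5 and 971.0. It was 2.16-fold higher without phosphate, 2.27-fold higher without potassium and 2.12-fold lower without nitrate. AT2G41380, a methyltransferase family gene, had signals of 131.7, 108.9, 279.3 and 421.3, at 2.12-fold and 3.20-fold. AT4G26060, of a family named after a ribosomal protein, had signals of 56.2, 78.6, 156.3 and 166.1, at 2.78-fold and 2.96-fold. AT2G37750, with no role given here, had signals of 27.4, 36.0, 93.1 and 150.3, at 3.40-fold and 5.49-fold, from a full-nutrient value just above the floor.

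AT1G10410 was the only named gene of the set with further probe sets on the array. Its member 15920_i_at had signals of 69.8, 109.3, 159.0 and 163.0, at 2.28-fold and 2.34-fold. Its probe set 12187_at had 54.2, 55.4, 84.6 and 107.5, at 1.56-fold and 1.98-fold. Its probe set 15921_s_at had 39.3, 48.7, 71.1 and 98.8, at 1.81-fold and 2.51-fold. All 3 probe sets were higher on both arrays than on the full-nutrient array, but 2 of them missed the 2-fold limit without phosphate. The nitrate ratio was 1.57-fold on the member and 1.02-fold and 1.24-fold on the others.

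**Figure D2:**
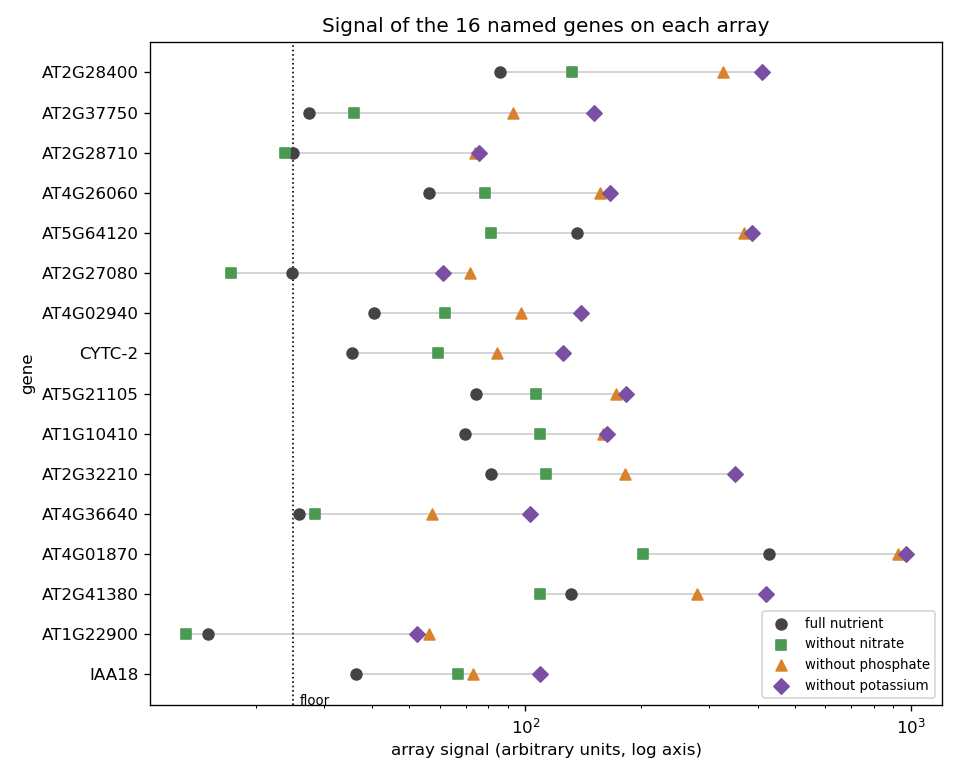
Array signal on a log axis for the 16 named genes, ordered by the smaller of the phosphate and potassium ratios; each marker is 1 array and the dotted line is the floor of 25. Phosphate and potassium markers lie to the right of the full-nutrient and nitrate markers for every gene, and the nitrate marker of IAA18 (66.7) lies close to its phosphate marker (73.3).

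The largest ratios belonged to probe sets without a gene name. The probe set 17511_s_at had signals of 19.2, 16.7, 361.3 and 236.6, at least 14.5-fold higher without phosphate and at least 9.46-fold without potassium. It was below the floor on both other arrays. The probe set 16620_s_at had 46.9, 44.8, 244.8 and 485.1, at 5.22-fold and 10.3-fold, with nitrate and full nutrients almost equal. The probe set 15116_f_at had 36.9, 46.5, 204.9 and 344.4, at 5.55-fold and 9.33-fold. Its ending marks probes shared within a family of sequences.

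The probe set 19118_s_at had 5.5, 5.5, 137.6 and 242.5, at least 5.50-fold and at least 9.70-fold higher. The probe set 12449_s_at had 36.4, 70.1, 169.6 and 234.7, at 4.66-fold and 6.45-fold, and its nitrate ratio of 1.93 was the highest among the 59 members above the floor under full nutrients. The endings _s_at and _f_at stand for probes that may match several transcripts or a family. The ending _s_at was carried by 29.2% of the members and 17.3% of all probe sets, and the plain ending _at by 66.7% and 75.7%. The plain ending was carried by 64.0% of the potassium-only and 70.9% of the phosphate-only probe sets.

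The rule fixes that bright members too passed 2-fold on both arrays, and their values are given here because the floor does not enter them. The 23 members with a full-nutrient signal of at least 100 were 2.12-fold to 4.31-fold higher without phosphate (median 2.47) and 2.14-fold to 5.23-fold higher without potassium (median 3.11). Their nitrate ratios had a median of 0.96, and 19 of the 23 lay within 1.5-fold of the full-nutrient array. Only 3 of them had a named gene, AT5G64120, AT4G01870 and AT2G41380. The unnamed 13244_s_at had signals of 267.1, 333.3, 1150.2 and 1197.6, a ratio above 4 on both arrays. The unnamed 16150_at had 961.1, 780.6, 2268.9 and 2348.4, and 15216_at had 919.1, 860.2, 2123.4 and 1964.3, so both changed by between 2.14-fold and 2.44-fold. The unnamed 20491_at had 569.1, 712.0, 1633.1 and 2975.2, at 2.87-fold and 5.23-fold.

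Although chosen as alike, the members differed in which depletion gave the higher signal. The potassium signal was the higher one in 55 of the 72 and the phosphate signal in 17, and the median potassium to phosphate ratio was 1.24. Over the 3807 probe sets above the floor on both arrays, 51.0% were higher on the potassium array, with no choice on their ratios. In 36.1% of the members the signals on these arrays lay within 1.2-fold of each other, against 47.2% of those 3807 probe sets. The rule used both signals and most of those probe sets were not changed, so these shares only describe the members. Potassium exceeded phosphate by 1.5-fold or more in 19 members, among them AT2G32210, AT4G36640, AT2G37750 and AT2G41380, and phosphate exceeded potassium by that much in 4.

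These 4 were unnamed. The probe set 18224_s_at had signals of 46.3, 32.4, 345.7 and 174.2, 7.47-fold higher without phosphate and 3.76-fold without potassium. The probe set 17008_at had 68.3, 31.3, 383.1 and 206.1, at 5.61-fold and 3.02-fold. The others were 17511_s_at, given above, and 20541_at, with 20.8, 34.8, 84.6 and 52.1. Of the named genes, 14 were higher on the potassium than on the phosphate array, and only AT2G27080 and AT1G22900, both below the floor under full nutrients, were lower.

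The nitrate array took no part in choosing the members. Its ratio to the full-nutrient array is not independent of the choice, since a low full-nutrient signal favours membership and also raises the nitrate ratio. With the floor applied, no member reached a 2-fold higher nitrate signal, where 0.424% of all probe sets did, and 2 were at least 2-fold lower, where 0.57% of all did. The median nitrate ratio was 1.08-fold, with 55 of the 72 within 1.5-fold of full nutrients, 12 at least 1.5-fold higher and 5 at least 1.5-fold lower. Of all probe sets, 3.03% were at least 1.5-fold higher and 2.24% at least 1.5-fold lower, and 52.5% of them had a full-nutrient signal at or below the floor, against 18.1% of the members. On the log2 scale the nitrate signal was closer to the full-nutrient signal than to the mean of the phosphate and potassium signals in 66 members. The rule puts that mean at least 2-fold above full nutrients, which favours this count. It has no share over all probe sets beside it and is a description only.

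**Figure D3:**
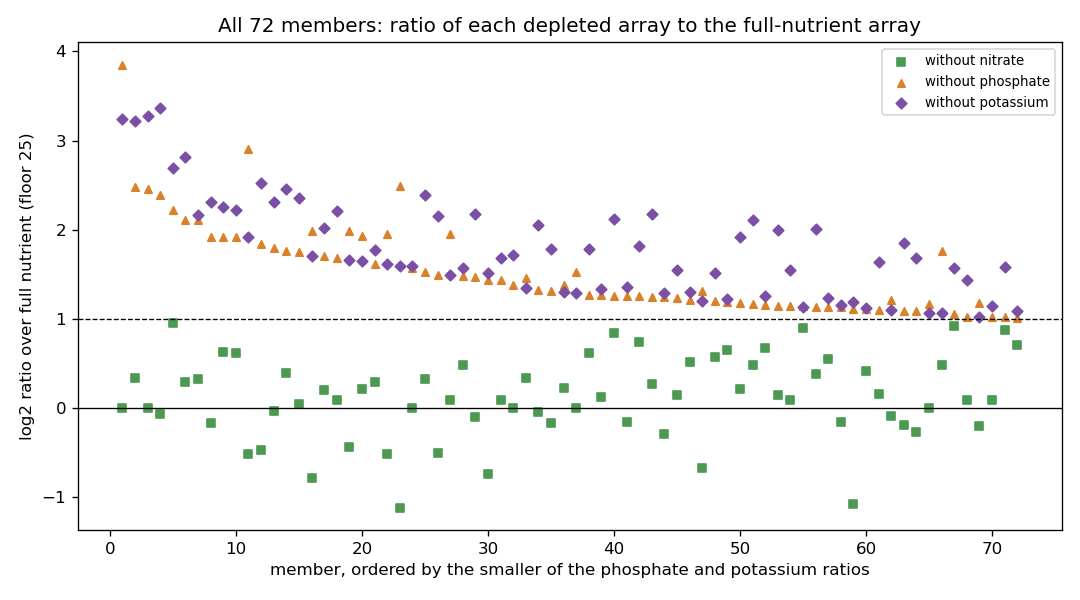
Log2 ratios over full nutrients for the 72 members, 1 marker per depletion, ordered by the smaller of the phosphate and potassium ratios; the dashed line is 2-fold and the solid line no difference. Nitrate points lie on both sides of 0, from -1.13 to 0.95, and none reaches the phosphate or potassium point of the same member.

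Among the 16 named genes, the nitrate signal was within 1.5-fold of full nutrients in 9, at least 1.5-fold higher in 5 and at least 1.5-fold lower in 2. The higher ones were IAA18, CYTC-2, AT1G10410, AT2G28400 and AT4G02940. The lower ones were AT4G01870 and AT5G64120.

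The nitrate array served as another baseline. The lower of the phosphate and potassium signals was above the higher of the full-nutrient and nitrate signals in all 72 members. The rule fixes this for the full-nutrient signal and favours it for the nitrate signal. No share over all probe sets is given for it, so the count only describes the members. Relative to the nitrate array, 51 members were at least 2-fold higher without phosphate, where 2.26% of all probe sets were, and 61 were at least 2-fold higher without potassium, where 3.97% were. Both limits were met by 50 members, 69.4%, against 1.56% of all probe sets; the choice of members for high phosphate and potassium signals fixes much of this difference. Of the 22 that missed at least 1 of these limits, 10 missed both.

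Named genes divided unevenly between the baselines. At least 2-fold over nitrate on both arrays were AT5G64120 (4.51-fold and 4.75-fold), AT4G01870 (4.58-fold and 4.81-fold), AT2G28400 (2.45-fold and 3.10-fold), AT2G37750 (2.59-fold and 4.18-fold), AT2G41380 (2.56-fold and 3.87-fold) and AT4G36640 (2.00-fold and 3.61-fold). AT2G28710, AT2G27080 and AT1G22900, below the floor on the nitrate array, met both limits with the same lower bounds as over full nutrients. The other 7 missed a limit. IAA18 was 1.10-fold and 1.63-fold over nitrate, AT1G10410 1.45-fold and 1.49-fold, and AT5G21105 1.61-fold and 1.72-fold, so none of these 3 reached 2-fold on either array. CYTC-2, AT4G02940, AT2G32210 and AT4G26060 reached it without potassium only, and AT4G26060 missed the phosphate limit narrowly, at 1.99-fold.

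**Figure D4:**
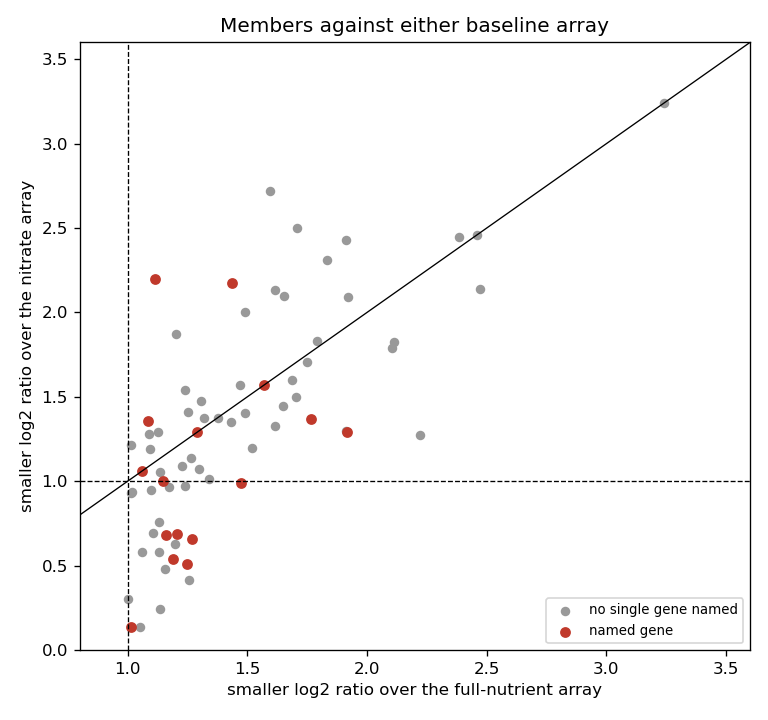
For each member, the smaller of its phosphate and potassium log2 ratios over the full-nutrient array (x axis) and over the nitrate array (y axis); dashed lines mark 2-fold and the solid line equality. The 22 members below the horizontal dashed line miss 2-fold over nitrate on at least 1 array, and IAA18 lies lowest of the named genes at 0.14.

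The 203 probe sets raised 2-fold without potassium only and the 55 raised without phosphate only had a median nitrate ratio of 1.00. At least 1.5-fold higher without nitrate were 16.7% of the members, 13.8% of the potassium-only and 18.2% of the phosphate-only probe sets. At least 1.5-fold lower were 6.94% of the members, 6.90% of the potassium-only and 18.2% of the phosphate-only probe sets. Of the 19 probe sets raised in both with a potassium signal at least 2 times the phosphate signal, 26.3% were at least 1.5-fold higher without nitrate and 0 were lower. These groups share the full-nutrient reference and no difference between them was tested.

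Genes closest to the 2 nutrients were few on the annotated array. Of a list for phosphate starvation, PS2, a phosphatase gene induced by phosphate shortage, and LPR1, of the root response to low phosphate, were named. PS2 had signals of 61.3, 41.0, 71.9 and 65.0, and LPR1 was below 5 on all arrays. The potassium list was represented by the cation exchanger genes CHX15 and CHX21, both below the floor on all arrays. PS2 changed by less than 2-fold. For LPR1, CHX15 and CHX21 the floor makes the signals equal on all arrays, so a change in them could not be read. The auxin list had 10 named genes, of which 3 were at least 2-fold higher on both arrays, the member IAA18 and the genes EXO and GH3.3, which the rule leaves out by name. Of all probe sets 1.19% were at least 2-fold higher on both arrays, and of all 3602 named genes 26 were (0.722%).

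The auxin list had a median log2 ratio of 0.36 without phosphate and 0.34 without potassium, with the probe sets of a gene averaged. Over all probe sets the median was 0.00 on both arrays, and -0.03 over those above the floor on every array. IAA18, EXO and GH3.3 met the limits on these same ratios, and the list was chosen with earlier results known. Its medians are therefore a description only. The Aux/IAA and GH3 genes of this list did not move as a block. GH3.1, GH3.9 and IAA15 were below the floor on all arrays, WES1, a GH3 enzyme that conjugates auxin, was at 43.1, 49.9, 60.0 and 68.8, and HAT2, an auxin-induced homeobox gene, was at 216.0, 278.0, 151.1 and 119.5.

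The defence list held no member. Of its 7 named genes, 3 were at least 2-fold higher without phosphate and 3 without potassium, with median log2 ratios of 0.85 and 0.45. The chitinase gene ChiC (3.6, 15, 87.8 and 245.7) and OSM34, an osmotin-like protein gene (44.0, 84.4, 139.9 and 1018), were higher on both, but their potassium signals were over 2 times their phosphate signals. They thus missed the limit that separates the set from stronger potassium responses, and the rule leaves OSM34 out by name too. Of the senescence and sugar starvation list (8 named genes), none was 2-fold higher without phosphate, while SAG29, a sugar transporter gene, and WRKY6, a transcription factor gene, were 6.44-fold and 2.89-fold higher without potassium.

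Of the cell wall list (15 named genes) none was a member, and with the probe sets of a gene averaged none was 2-fold higher on either array. The probe sets of ATPMEPCRB, below the floor under full nutrients, were at least 2.08-fold and at least 1.51-fold higher without phosphate. Of the transcription factor list (41 named genes) none was a member, 1 was 2-fold higher without phosphate and 3 without potassium. The gene higher on both was STZ, which met the limits and is left out by name. All lists were matched by symbol or synonym, so members known by a locus only could be missed. Members described above by such roles but on no list were AT2G28710 (zinc finger), AT5G64120 and AT1G22900 (wall phenolics) and AT2G28400 (senescence). AT2G27080, of a family related to defence proteins, was on no list either. A list without a member therefore does not show that the set lacks genes of that kind. Lists for touch and wounding, abscisic acid, nitrate assimilation and photosynthesis held no member either. Of 3 touch genes, EXO and STZ were at least 2-fold higher on both arrays and met the limits, but the rule leaves both out by name. The lack of a touch member is thus partly set by the rule. WRKY53 was at 1.01-fold and 1.11-fold. Of 4 genes for abscisic acid and cold, COR15B was 2.27-fold higher without phosphate and LTI30 at least 4.12-fold higher without potassium, and neither was so on both. Of 5 genes for nitrate and ammonium assimilation 1 was 2-fold higher, without potassium. With the probe sets of a gene averaged, no photosynthesis gene of 9 was 2-fold higher or lower, at median log2 ratios of -0.24 without phosphate and -0.76 without potassium. Single probe sets of PSAE-1 and PSBW were at log2 ratios of -1.01 and -1.06 without potassium. Over all 3602 named genes, 43 were at least 2-fold higher without phosphate and 104 without potassium.

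Markers of leaves and other organs were read on the same arrays. The summed signal of the 7 probe sets of 6 named leaf markers was 32873.5, 34288.3, 27295.9 and 18709.1, lowest where many members were highest. The root marker BGLU21, the single named one, was at 1.7, 0.8, 5.3 and 377.2, above the floor without potassium only. The 3 named flower, pollen and seed markers summed to between 5.3 and 25.9. The part of these markers in the potassium ratios of the members was not tested.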

How the data were processed

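For 4 single-colour Affymetrix arrays, the authors deposited a linear intensity value per probe set and array. Per the labels, leaf total RNA was labelled with biotin. Which expression algorithm and genome build were used is not given in the sources used. The trimmed mean of the deposited intensity values (2% of probe sets removed at each end) was 100.1 to 100.2 on each array, so no further scaling was done. Of 8297 probe sets, 50 controls were removed. The platform annotation named 1 gene for 3794, several for 70 and none for 4383 probe sets; 3784 matched the TAIR10.1 gene table, which supplied current symbols. Probe sets with several genes stay unnamed.

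Signals under 25 were set to 25, and log2 ratios between arrays were taken from these (Python 3.11.15, pandas 2.3.3). A ratio with the lower side at the floor is a bound, written "at least". With 1 array per group no test was possible, and the number of arrays limits precision. The rule was checked on simulated data, with changes well over 2-fold planted in probe sets well above the floor. The check does not cover members near the 2-fold limit or the floor. Values on every array are given for all named members, for the 5 unnamed members with the highest smaller ratio, and for further unnamed ones picked after their values were seen. The members and lists were chosen with earlier results of these data known. Gene lists were matched by symbol or synonym only. For the counts and medians of the lists, the log2 ratios of a gene with several probe sets were averaged. A comparison of promoter motifs was not run, since no sequence was used here.

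Alternatives were floors of 10 and 50, a pseudocount of 25, quantile normalization, lowess centring (statsmodels 0.14.6, span 0.3), probe sets with the plain ending, limits of 1.5-fold and 3-fold, and the nitrate array as reference.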

Additional observations from a re-analysis of the deposited data

Results flagged for a closer look

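In 2 members the signal without nitrate was at least 2-fold lower than under full nutrients, while the signals without phosphate and without potassium were at least 2-fold higher. AT4G01870 had a log2 nitrate ratio of -1.08, against log2 ratios of 1.11 without phosphate and 1.18 without potassium. The unnamed probe set 17008_at had a log2 nitrate ratio of -1.13, against 2.49 and 1.59. Each group has 1 array, so the difference between nitrate and the other depletions was not tested.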

How the results depend on the processing

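The rule took 123 probe sets with a floor of 10, 200 with a 1.5-fold limit and 23 with a 3-fold limit, in place of 72. Under the floor of 50, the pseudocount of 25, quantile normalization, lowess centring, the plain ending, other limits on the potassium to phosphate ratio, the nitrate array as reference (alone or added to the full-nutrient array) and AT2G38240 kept (an alternative chosen after seeing the data), the count lay between 48 and 100, within 1.5 times of 72. A like count did not mean the same members. With the nitrate array as reference, 50 of the 100 probe sets and 9 of the 16 named genes were those of the main set. With the pseudocount, 45 of the 50 probe sets and 5 of the 16 named genes were. The 16 named genes became 41 with a floor of 10, 8 with a floor of 50, 8 with the pseudocount, 65 with the 1.5-fold and 2 with the 3-fold limit. Under both floors, the pseudocount and both normalizations alike, 40 of the 72 members and 4 named genes (AT2G28400, AT4G01870, AT4G26060 and AT5G64120) met the rule. The share of members at least 2-fold over the nitrate array on both arrays was 56.1% with a floor of 10, 81.6% with a floor of 50, 80.0% with the pseudocount, 35.0% with the 1.5-fold and 100.0% with the 3-fold limit, in place of 69.4%. The fold limits and floors change which probe sets are counted by construction; other causes were not tested. The median nitrate ratio and the median potassium to phosphate ratio moved by less than the spread between probe sets of 1 gene (0.18 on the log2 scale) in every alternative run for them. Of the 160 recomputed gene ratios, 42 moved by more than that spread and none changed direction. With the floor of 50, the log2 potassium ratio of AT1G22900 was 0.06 in place of 1.06 and the log2 phosphate ratio of AT4G36640 0.19 in place of 1.15. No paired analysis was possible because each group has 1 array. The promoter alternatives were not run. Signals near the floor, with 13 members at or below it under full nutrients, limit the precision of the lowest ratios.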
